A study of Mus musculus with 4 samples.

Results

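Bone morphogenetic protein (BMP) genes were examined for Ring1b occupancy through 7 windows of the mm9 genome, 1 for each of the ligand genes Bmp2, Bmp4, Bmp6, Bmp7 and Gdf6 and the antagonist genes Nog and Grem1. The members were all listed Ring1b regions that overlap a window by at least 1 base. They came to 5 of the 6371 regions, and all 5 lay in the Bmp6 window. The windows of Bmp2, Bmp4, Bmp7, Gdf6, Nog and Grem1 held 0 regions. The windows were given with the gene names, and no mm9 annotation was used here, so no region is assigned to an exon, an intron or a promoter.

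Ring1b was measured by chromatin immunoprecipitation and sequencing (ChIP-seq) in C3H10T1/2, a mouse mesenchymal progenitor line derived from C3H embryos, at passage 10 to 15. The WT cells stably expressed FLAG-HA-tagged wild-type H3.3, and the K36M cells stably expressed FLAG-HA-tagged H3.3 in which lysine 36 is methionine. The labels give no change to the line's own histone genes. There was 1 Ring1b library for each form. The series also has an input library for each form, which was not analysed here.

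BMPs are secreted ligands that bind serine/threonine kinase receptors and signal through Smad transcription factors. In mesenchymal progenitors they are known for driving bone, cartilage and fat differentiation, and secreted antagonists bind the ligands outside the cell and keep them from their receptors. Ring1b is the ubiquitin ligase of Polycomb repressive complex 1, which is known to gather at the CpG-rich promoters of silent developmental genes, among them genes of signalling ligands and their antagonists.

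Because Polycomb complexes are known for their link to CpG-rich DNA, the promoters of the members were compared by sequence. The RefSeq promoter table of build GRCm38.p6 holds entries matching 3 of the 7 genes, Bmp6, Bmp4 and Grem1. This build differs from mm9, and its coordinates cannot be set against those of the Ring1b regions. The 250 bases upstream of each start are shown 5′ to 3′ on the strand of the gene, with CpG dinucleotides in capitals. They lie at chr13:38345466-38345715 (plus strand) for Bmp6, chr14:46390670-46390919 (minus strand) for Bmp4 and chr2:113758649-113758898 (minus strand) for Grem1.
Bmp6: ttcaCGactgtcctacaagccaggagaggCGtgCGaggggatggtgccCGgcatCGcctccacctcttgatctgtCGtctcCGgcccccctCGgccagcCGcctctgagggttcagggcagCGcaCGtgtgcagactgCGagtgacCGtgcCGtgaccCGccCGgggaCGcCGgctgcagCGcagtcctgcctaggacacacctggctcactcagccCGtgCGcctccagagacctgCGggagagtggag
Bmp4: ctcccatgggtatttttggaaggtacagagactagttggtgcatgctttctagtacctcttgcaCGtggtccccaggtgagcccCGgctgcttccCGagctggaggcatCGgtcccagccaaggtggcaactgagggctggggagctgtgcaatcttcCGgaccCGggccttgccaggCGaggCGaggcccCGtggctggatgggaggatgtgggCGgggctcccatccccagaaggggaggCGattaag
Grem1: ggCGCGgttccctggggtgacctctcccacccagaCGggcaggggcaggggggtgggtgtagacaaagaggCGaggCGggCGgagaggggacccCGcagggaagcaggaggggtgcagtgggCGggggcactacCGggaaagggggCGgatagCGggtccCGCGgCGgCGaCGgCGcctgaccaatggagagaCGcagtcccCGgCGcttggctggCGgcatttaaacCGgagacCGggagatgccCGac

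CpGs were dense upstream of Bmp6 (22 in 250 bases) and Grem1 (24) and sparser upstream of Bmp4 (11). Over the full 300-base promoter, which adds 50 bases after the start, Bmp6 held 27 CpGs, Grem1 28 and Bmp4 12. The median of the 32851 promoters of the table, which cover 27025 genes and were not limited by gene type here, was 7. These counts stood at percentile 85.2 for Bmp6, 86.4 for Grem1 and 61.2 for Bmp4. The ratio of observed to expected CpGs was 0.751, 0.792 and 0.419 in the same order, against a median of 0.384. Bmp6 and Grem1 thus had promoters of nearly the same CpG content. Since no Ring1b region is assigned to a promoter, a link between these counts and Ring1b was not tested.

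**Figure D1:**
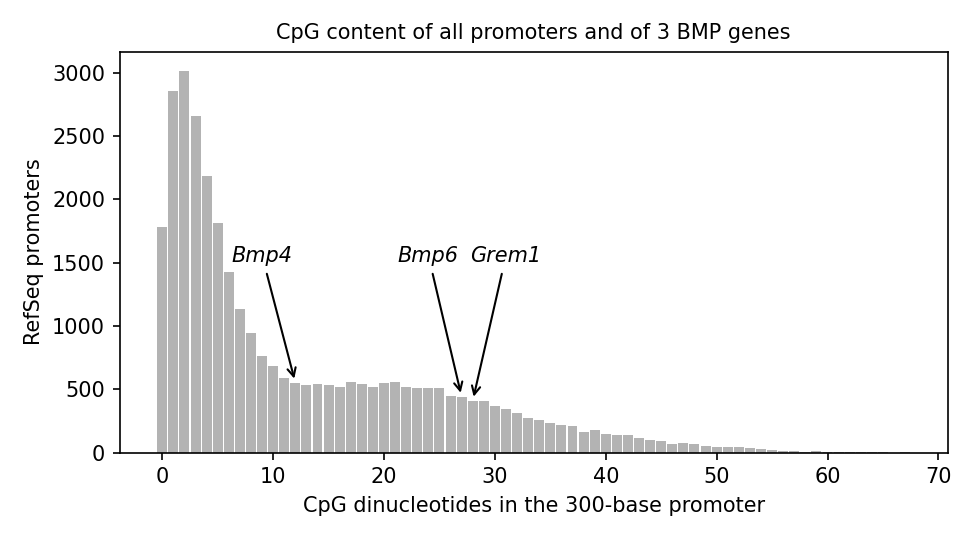
Number of RefSeq promoters (vertical axis) by the number of CpG dinucleotides in 300 bases (horizontal axis), with arrows at 3 BMP genes. Bmp6 (27) and Grem1 (28) lie close together in the upper part of the distribution, and Bmp4 (12) lies nearer to the median of 7.

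The only listed Ring1b regions were those of Bmp6, a ligand known for its part in iron balance, where it induces hepcidin in the liver, and in bone and cartilage. Its window, at 38.40 to 38.63 Mb of chromosome 13, is 230 kb long. In the GRCm38.p6 gene order the protein-coding neighbours of Bmp6 are Gm47978 and then Snrnp48 on one side, and Txndc5 and then Bloc1s5 on the other. Whether a region near an end of the window belongs to one of these was not tested. Levels are given in reads per 1000000 reads (RPM), in which 1 read was worth 0.0335 in the WT and 0.0317 in the K36M library, and they are not divided by region width. Intervals are exact 95% counting intervals. With 1 library per form, none of them covers the spread between cultures, and no test of the difference was possible.

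The first region, at chromosome 13, 38395601 to 38403600, is 8000 bp wide, of which 3600 bp fall inside the window. It held 6.03 RPM in WT cells (180 reads) and 3.46 RPM in K36M cells (109 reads). The K36M level was 1.75-fold lower, with an interval of 1.37 to 2.23. Its log2 ratio, taken with 0.1 RPM added to each value, was -0.79.

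The second region, 38407801 to 38421000, was the widest (13200 bp) and began 4.2 kb after the first. It held 7.57 RPM in WT cells (226 reads) and 8.43 RPM in K36M cells (266 reads). It was the only one of the 5 with a higher value in K36M. The interval of the ratio of 1.11, from 0.929 to 1.34, includes 1, so a difference was not detectable at this depth. Among all regions, its log2 ratio of 0.15 stood at percentile 91.1.

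The third region, 38440001 to 38444200, had the lowest ratio of the locus. It held 5.86 RPM in WT cells (175 reads) and 3.297 RPM in K36M cells (104 reads), which is 1.78-fold lower (interval 1.39 to 2.29). The fourth region, 38498801 to 38503000, has the same width of 4200 bp and nearly the same WT level, 5.76 RPM (172 reads). It held 3.84 RPM in K36M cells (121 reads). The level was 1.502-fold lower (interval 1.18 to 1.91). The intervals of these neighbours overlap, so they cannot be ranked.

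The fifth region, 38625201 to 38628400, is 3200 bp wide and lay apart from the rest, with a gap of 122.2 kb to the fourth. It held nearly equal levels, 3.25 RPM in WT cells (97 reads) and 3.20 RPM in K36M cells (101 reads). Its ratio of 0.985 had an interval of 0.738 to 1.32. In WT it held the lowest level of the 5, and in K36M its level was close to those of the first and the third.

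**Figure D2:**
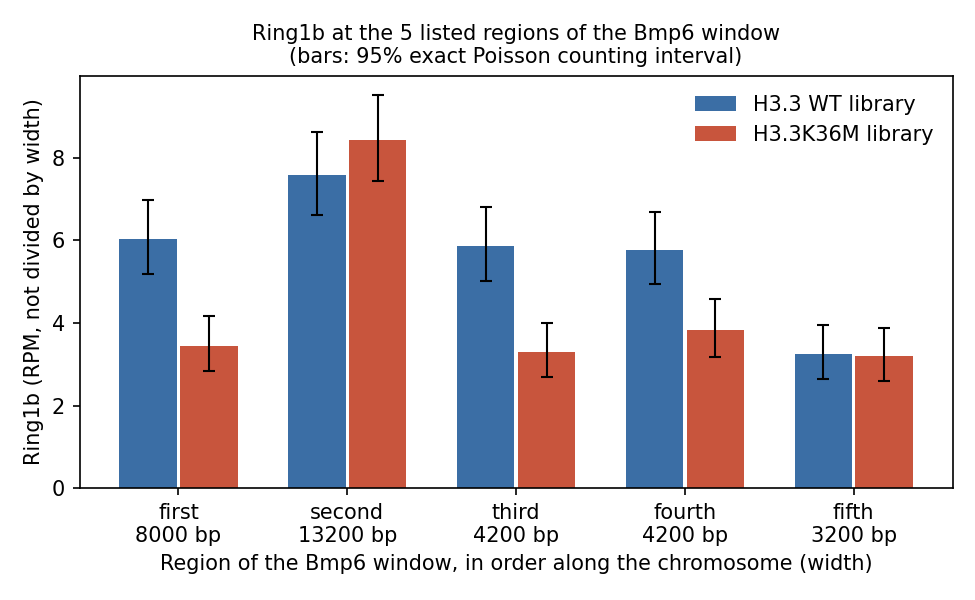
Ring1b level in RPM (vertical axis, not divided by width) at the 5 listed regions of the Bmp6 window in order along the chromosome, for the WT (blue) and K36M (red) library, with 95% exact Poisson counting intervals as error bars. The bars of the first, the third and the fourth region are shorter in K36M, with error bars that do not overlap those of WT, whereas those of the second and the fifth overlap.

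The 5 regions were uneven. None of them touched another, with gaps of 4.2, 19.0, 54.6 and 122.2 kb between them. Their WT levels stood between percentile 34.2 and 75.4 of all regions. In 4 of 5 the K36M value was below the WT value, where 85.1% of all 6371 regions were lower. A level at least 1.5-fold lower was found at 3 of 5, against 54.4% of all regions, and a level at least 2-fold lower at 0 of 5, against 35.0%. The fourth region only just reaches 1.5-fold. With 0.1 RPM added to both values it falls short, which leaves 2 of 5. The counting interval lay wholly below 1 at 3 of 5 regions (65.1% of all regions) and wholly above 1 at 0 (3.06%). With 5 regions, the shares past 1.5-fold and with an interval below 1 are near those of the whole table. All regions, members or not, were listed for peaks of the WT library, a choice that favours higher values in WT. Its part in the lower K36M counts and sums was not tested.

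Summed over the locus, Ring1b came to 28.5 RPM in WT cells (850 reads) and 22.2 RPM in K36M cells (701 reads). The ratio was 0.780 (interval 0.705 to 0.863), which is 22.0% lower. The sum over all regions of the table had a ratio of 0.634, and that over the 385 regions of chromosome 13 had a ratio of 0.680. The second region decides how the locus compares with these. Without it the ratio was 0.660 (interval 0.582 to 0.747), an interval that includes the ratio of the whole table. The median log2 ratio of the 5 regions was -0.57, with a range from -0.81 to 0.15, beside a median of -0.65 over all regions (quartiles -1.22 and -0.20).

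Relative to the median region of the table, the first and the third regions stood at -0.13 and -0.16 on the log2 scale and the fourth at 0.078. The second and the fifth were higher, at 0.81 and 0.63. Set against regions of like width, the second and the fifth again stood highest. Of the 632 regions within 25% of the width of the second, 3.64% had a higher log2 ratio, and the median of those regions was -0.54. Of the 829 regions of like width to the fifth, 12.1% had a higher log2 ratio. For the first, the third and the fourth region these shares were 62.8%, 56.4% and 43.1%, which places them in the middle of their width classes. In WT the second and the fifth lay below the median level of their classes (7.57 against 9.75 RPM and 3.25 against 4.66 RPM). In K36M both lay above it (8.43 against 6.4985 RPM and 3.20 against 2.69 RPM). The first also lay below its class in WT, at 6.03 against 7.32 RPM.

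**Figure D3:**
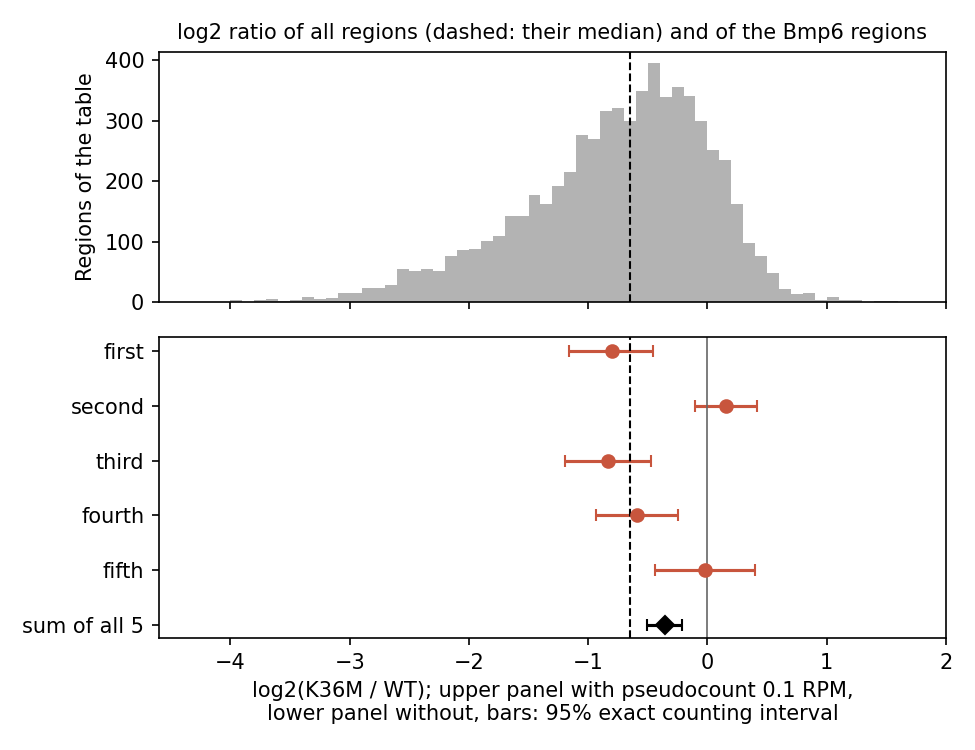
The upper panel shows the number of regions of the table by log2 ratio of K36M to WT, and the lower panel the log2 ratio of each Bmp6 region and of their sum with 95% exact counting intervals. The first, the third and the fourth region lie near the dashed median of all regions (-0.65), and the second and the fifth lie near 0.

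The distribution of reads along the locus differed between the libraries. The second region took 26.6% of the reads of the 5 regions in WT cells (exact interval 23.6% to 29.7%) and 37.9% in K36M (34.3% to 41.7%). The first took 21.2% in WT and 15.5% in K36M, and the third 20.6% and 14.8%. The fourth took 20.2% and 17.3%, with intervals that overlap, and the fifth 11.4% and 14.4%, also with overlapping intervals.

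Read density is the level per kb of region. In WT it was 1.40 RPM per kb at the third region (interval 1.20 to 1.62), 1.37 at the fourth, 1.02 at the fifth, 0.754 at the first and 0.574 at the second (interval 0.501 to 0.653). The intervals of the third and the fourth lay wholly above those of the first and the second, and that of the fifth above that of the second. The intervals of neighbours in this order overlap, which does not show that their densities are equal. In K36M the densities were 1.00 at the fifth (interval 0.815 to 1.22), 0.913 at the fourth, 0.785 at the third, 0.639 at the second and 0.432 at the first. The intervals of the fifth, the fourth and the third overlap, so these cannot be ranked, and the first lay below all the others beyond counting error. Over all regions the median density was 1.75 RPM per kb for WT and 0.921 for K36M, so that in WT all 5 regions lay below it. Density falls with width in this table (Spearman's rho across the 6371 regions -0.877 in WT and -0.726 in K36M, a description, since density is itself divided by width). Set against the 632 regions of like width, the second region had 7.57 RPM in WT cells where their median was 9.75, and 8.43 RPM in K36M cells where it was 6.4985. The values were not corrected for background, and input was not used here. The part of background reads was not tested at any of the 5 regions, including the near-equal levels of the second and the fifth. The lowest densities stood low among all regions too, the second region in WT at percentile 3.85 and the first in K36M at percentile 10.5.

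**Figure D4:**
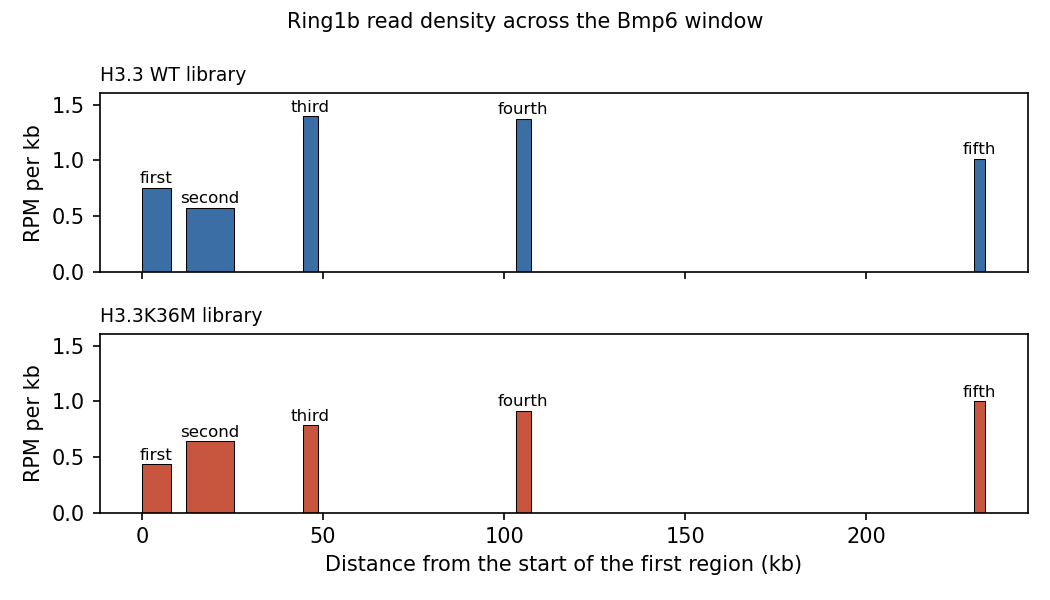
Ring1b read density in RPM per kb (vertical axis) against distance from the start of the first region in kb (horizontal axis) for the WT (upper) and K36M (lower) library, with each box as wide as its region. The densities span 0.574 to 1.40 in WT and 0.432 to 1.00 in K36M, and the third and the fourth region have the highest boxes in WT and boxes of 0.785 and 0.913 in K36M.

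Beyond the window, the nearest region to Bmp6 lay 58.0 kb before it, at 38338401 to 38342000. It held 5.83 RPM in WT cells and 2.41 RPM in K36M cells, a 2.42-fold lower level (interval 1.84 to 3.21). On the other side the nearest region was 770.2 kb away, with 12.0 RPM in WT cells and 6.4985 RPM in K36M cells (1.85-fold lower). Neither is a member. Both had lower ratios than the sum of the locus, with intervals below that of the sum.

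The other ligand windows held no listed region. Bmp4, known for its roles in mesoderm, limb and fat development, came closest. Its window at 46.96 to 47.05 Mb of chromosome 14 ended 1.8 kb before a region at 47051801 to 47060400, which held 10.3 RPM in WT cells (308 reads) and 6.12 RPM in K36M cells (193 reads), a 1.69-fold lower level (interval 1.40 to 2.03). On the lower side the nearest regions were 31.8 and 38.6 kb away. The nearer held 5.73 RPM in WT cells and 2.16 RPM in K36M cells (2.66-fold lower), and the next, at 46919001 to 46921400, held 9.28 RPM in WT cells and 1.68 RPM in K36M cells. The latter was 5.52-fold lower (interval 4.10 to 7.56), a larger reduction than at any region of the Bmp6 window. Within 1 Mb of the Bmp4 window there were 23 regions, and all 23 had a lower value in K36M, against 85.1% of all regions. Of these, 6 touch another listed region and do not count as separate sites. Around the other windows, a lower value in K36M was found at 3 of 3 regions within 1 Mb for Bmp6, 4 of 4 for Bmp7, 2 of 2 for Gdf6, 1 of 1 for Nog and 5 of 7 for Grem1. Of the 7 around Grem1, 6 touch another listed region, and these too do not count as separate sites.

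For Bmp2, a ligand known for inducing bone formation, the nearest region was 1297.0 kb from the window at 133.34 to 133.43 Mb of chromosome 2, and none lay within 1 Mb. That nearest region held 4.52 RPM in WT cells and 2.44 RPM in K36M cells. For Bmp7, known for its roles in kidney and eye development, the window at 172.65 to 172.81 Mb of chromosome 2 lay 271.4 kb from the nearest region, which held 4.12 RPM in WT cells and 2.44 RPM in K36M cells (1.69-fold lower, interval 1.26 to 2.27). For Gdf6, a ligand known for joint and skull formation, the window at 9.73 to 9.83 Mb of chromosome 4 lay 857.4 kb from the nearest region, with 2.71 RPM in WT cells and 1.43 RPM in K36M cells. At these distances the regions cannot be tied to the named genes.

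The antagonist windows held no listed region either. Nog encodes noggin, which binds BMP ligands and blocks receptor binding. Its window at 89.12 to 89.21 Mb of chromosome 11 lay 313.4 kb from the nearest region, which held 6.03 RPM in WT cells and 5.04 RPM in K36M cells, with a ratio of 0.836 and an interval from 0.671 to 1.04 that spans 1. Grem1 encodes gremlin, an antagonist of BMP2 and BMP4 known from limb development. Below its window at 113.54 to 113.64 Mb of chromosome 2, a pair of touching regions lay 77.4 and 77.8 kb away, and both were higher in K36M. The 1400-bp region at 113460801 to 113462200 held 5.26 RPM in WT cells (157 reads) and 9.67 RPM in K36M cells (305 reads), a ratio of 1.84 with an interval of 1.51 to 2.24. The adjoining 400-bp region held 1.61 RPM in WT cells (48 reads) and 2.92 RPM in K36M cells (92 reads), a ratio of 1.81 (interval 1.27 to 2.63). A level at least 1.5-fold higher was found at 1.49% of all regions. In the GRCm38.p6 gene order Fmn1 is the nearest protein-coding neighbour of Grem1 on the side of lower coordinates. Whether the pair belongs to Grem1, to Fmn1 or to neither was not tested.

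**Figure D5:**
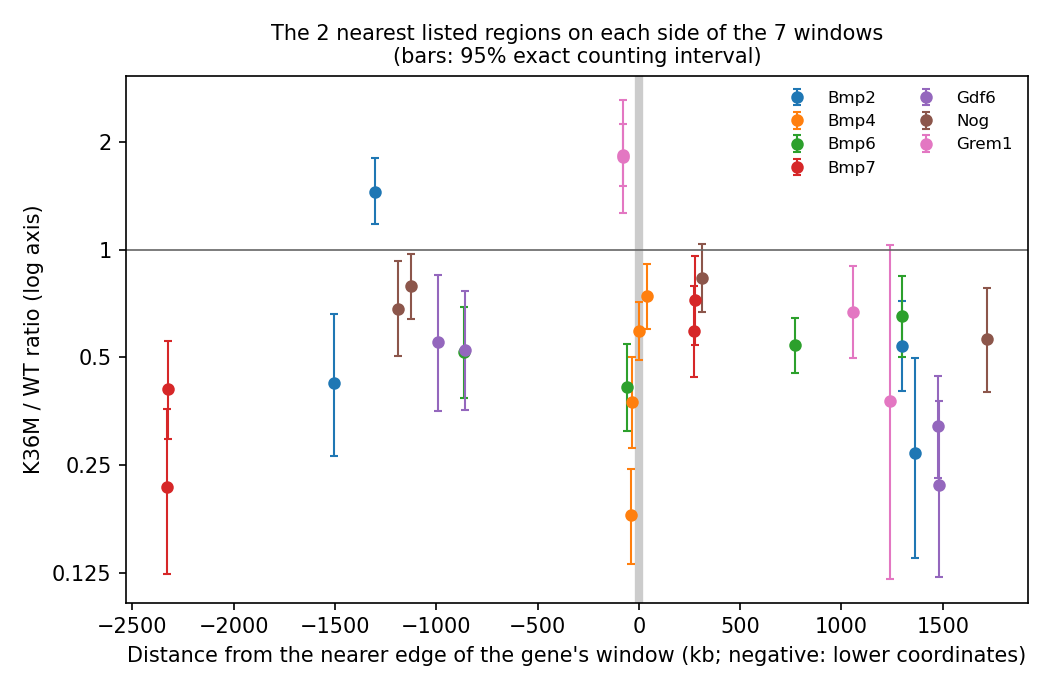
Ratio of K36M to WT (vertical log axis) at the 2 nearest listed regions on each side of each window, against their distance from the window edge in kb (horizontal axis, negative towards lower coordinates), with 95% exact counting intervals. Most points lie below 1, the Bmp4 points lie within 41.0 kb of the window, and the pair of touching regions 77.4 and 77.8 kb below the Grem1 window lies above 1.

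Over the 6 windows without a region, 21 of the 24 nearest regions had a lower value in K36M, against 85.1% of all regions. The counting interval lay below 1 at 19 of these 24 regions, against 65.1% of all regions, and above 1 at 3, against 3.06%. The 3 are the touching pair below Grem1 and a region 1302.0 kb below Bmp2 with a ratio of 1.45 (interval 1.18 to 1.80). Touching regions, also found among the nearest regions of Bmp7 and Gdf6, do not count as separate sites. The gaps between these regions and their windows ran from 1.8 to 2328.4 kb. The table lists regions associated with peaks of the WT library, and the threshold of the peaks is not given in the sources used here. A window without a region therefore shows that none was listed there, not that Ring1b was missing, and sites present in the K36M library alone have no place in such a table. For scale, 13.3% of the 25961 stretches of 100 kb, up to the last region of each chromosome, held at least 1 listed region. This share left out 1 listed region of 1 Mb or more. The windows are 90 to 230 kb long, and the Bmp6 window is the longest.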

How the data were processed

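The authors deposited 1 table of 6371 regions with a value for each of the 2 Ring1b libraries. Bowtie 1.0.0 and build mm9 were used, per the submitters' processing notes. Which peak caller and counting rule were used is not given in the sources used. The deposited columns are headed RPKM, but all values are whole multiples of 0.0335 (WT) or 0.0317 (K36M), within 0.01 reads, whatever the region width, so they are treated as RPM. If this scale is exact, the steps imply about 29850746 and 31545741 reads. The regions hold 1075510 and 720528 reads. Starts are printed counted from 1.

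Reads per region were the value divided by its step. The ratio of K36M to WT was given with the exact (Clopper-Pearson) 95% interval, given the region's total reads. This interval was tested on simulated independent Poisson counts. These held no copied reads and no spread between cultures, so the test checked only the calculation. Intervals cover counting error only, since there was 1 library per form. The reads carry no molecular identifiers and may be copies of 1 molecule, in which case the intervals are too narrow. Log2 ratios used a pseudocount of 0.1 RPM, which understates the change of low regions. Folds used none. Percentiles are over all regions or promoters of their table, with ties counted at the middle.

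The members and lists were chosen with earlier results of these data known. All 7 genes and every region of their windows were described, with the 2 nearest regions on each side. Regions of like width, shares of reads, stretches of 100 kb and counts within 1 Mb were added after the values were seen. A list of other BMP pathway genes was not used, since no mm9 annotation was used here. The alternatives were the pseudocount, a filter on low values, the overlap rule, merging, the fold, regions left out, wider windows and centring. Python 3.11.15, SciPy 1.17.1, pandas 2.3.3 and NumPy 2.4.6 were used.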

Additional observations from a re-analysis of the deposited data

How the results depend on the processing

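With 1 library per form of H3.3, no value has a replicate check. No paired analysis was possible because each form has 1 Ring1b library. Centring turned the direction: the median log2 ratio of the 5 Bmp6 regions went from -0.57 to 0.078 relative to the median of all regions, and the summed ratio from 0.780 to 1.25 when divided by the median ratio of all regions. The count of regions at least 1.5-fold lower went from 3 to 0 with centring and to 0 with a fold of 2. The summed ratio was 0.660 without the second region, which has the highest WT value. The other 10 of the 15 alternatives kept the direction. Among them, the summed ratios stayed within the counting interval of 0.705 to 0.863, and the counts within 1.5 times. No counting interval is given for the median log2 ratio, which moved from -0.57 to -0.30 with only the 4 regions wholly inside the window. Merging, the filter on low values, leaving out regions of 400 bp or less and widening the window left the Bmp6 values as they were, since they changed no region. Widening by 50 kb on each side gave the Bmp4 window 5 regions, summing to 42.8 RPM for WT and 22.6 RPM for K36M cells, a ratio of 0.528 (interval 0.481 to 0.579), and left the other 5 windows empty.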
